A study of Anableps anableps with 4 samples.

Results

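The copies of apolipoprotein D examined here were the gene rows with the symbols APOD (ENSABLG00000014137) and apoda.1 (ENSABLG00000007454), 2 of the 22934 genes listed for the four-eyed fish Anableps anableps. They were chosen by symbol, and the interest in them came from their measured levels in these same sections, so their levels are given as a description and no test was applied to them. The data were spatial transcriptomes, in which a frozen tissue section lies on an array of barcoded spots and each spot gives the pooled polyadenylated RNA of the patch of tissue on it, which can hold several cells. The sections were adult eye 1, adult eye 2, a capture area that held a stage 3 head together with a stage 5 eye, and a stage 4 head. No genotype or treatment is given for any of them. The stage 3 and stage 5 tissues share 1 capture area, called the stage 3 and 5 section, and could not be separated here. Each developmental group had 1 section, and the labels do not say whether 1 animal gave both adult eyes. The study concerns the ventral retina and vision in air in this fish, and the sections allow the level of a gene to be set between adult eyes and developing heads.

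Apolipoprotein D is a secreted lipocalin, a small barrel-shaped protein that binds hydrophobic molecules such as arachidonic acid and progesterone. It travels on high-density lipoprotein, which gave it its name, although its fold is unlike that of the other apolipoproteins. In mammals it is made by glia and by fibroblasts around vessels, and its level in nervous tissue goes up with age and injury. Bony fishes carry several copies, often side by side in the genome. Which copy of other fishes the row named APOD corresponds to was not examined here.

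Spots with at least 100 unique molecular identifiers (UMIs, each marking 1 captured RNA molecule) were used. There were 1293, 1488, 779 and 1135 of them in adult eye 1, adult eye 2, the stage 3 and 5 section, and the stage 4 head, with 4318525, 5161091, 1513171 and 4269120 UMIs and a median of 1295, 1099.5, 1628 and 2276 UMIs per spot. Levels are UMIs per 1000000 UMIs of the section (CPM), and a count of 0 allows 0.695, 0.581, 1.98 and 0.703 CPM, the value of 3 counts. The intervals are exact Poisson 95% intervals for levels and exact Clopper-Pearson 95% intervals for shares of spots, and they cover counting error only. Lens genes made up a large part of the adult libraries. The 20 lens markers summed to 227096 and 218101 CPM in the adult eyes, against 26268 CPM in the stage 3 and 5 section and 22235 CPM in the stage 4 head. The adult sections were eyes and the stage 3 and stage 4 sections were heads, so age and tissue cannot be told apart, and in sections of mixed tissue fewer cells of a type and less RNA per cell cannot be told apart either.

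APOD was abundant in both developmental sections and nearly absent from both adult eyes. It had 9 UMIs in adult eye 1 and 31 UMIs in adult eye 2, against 72445 UMIs in the stage 3 and 5 section and 14727 UMIs in the stage 4 head. These were levels of 2.08 CPM (0.953 to 3.96) in adult eye 1, 6.01 CPM (4.08 to 8.53) in adult eye 2, 47876 CPM (47528 to 48226) in the stage 3 and 5 section and 3450 CPM (3394 to 3506) in the stage 4 head. The order of the levels was therefore the stage 3 and 5 section, the stage 4 head, adult eye 2 and adult eye 1, and no neighbours in that order had overlapping intervals. APOD alone made up 4.79% of all UMIs in the stage 3 and 5 section and 0.345% in the stage 4 head.

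The mean adult level was 11835-fold lower than that of the stage 3 and 5 section, a log2 ratio of -13.53. It was 853-fold lower than that of the stage 4 head, a log2 ratio of -9.74. Adult eye 1 alone was 22973-fold lower (12101 to 50242) than the stage 3 and 5 section and 1655-fold lower (872 to 3621) than the stage 4 head. Adult eye 2 alone was 7971-fold lower (5615 to 11732) and 574-fold lower (404 to 846). Genes with at least 50 UMIs over both adult eyes together, or over both developmental sections together, numbered 7191. Both adult eyes lay at least 4-fold below both developmental sections for 145 of them, or 2.02%, and APOD was among these. Since the contrast drew attention to the gene, this share is a background and no support.

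The stage 3 head and stage 5 eye held 13.9 times (13.6 to 14.1) the APOD level of the stage 4 head. Between these sections 13.1% of 3229 genes were at least 4-fold higher in the stage 3 and 5 section. Another 5.02% were at least 4-fold lower there. A difference past 4-fold was thus common, but the share of genes at 13.9-fold was not counted. With 1 section on each side, the APOD difference compares 2 capture areas that also differ in which tissue they hold. Adult eye 2 held 2.88 times (1.34 to 6.88) the level of adult eye 1.

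The few adult APOD molecules were set against the array positions that the sections share, since a spot barcode marks a place on the array and the same barcodes occur in several sections. All barcodes were used for this, with no minimum of UMIs. Of the 9 APOD UMIs of adult eye 1, 4 lay at the 202 of its 1456 barcodes that were also in the stage 3 and 5 section. Of these shared barcodes, 16 were in the 10% of spots of the stage 3 and 5 section with the most APOD UMIs, and 3 of the 9 UMIs lay there. Of the 31 APOD UMIs of adult eye 2, 16 lay at 197 shared barcodes of 1649, and 11 at the 28 barcodes of that kind. These shared positions were a small part of the barcodes of each adult eye. Their share of all UMIs was not counted, and spots differ in depth, so a share of barcodes is not a share of RNA. The stage 4 head, which shares 722 and 790 barcodes with the adult eyes, was not set against the adult APOD UMIs. The part of RNA from such positions in the adult level was not tested.

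The copy apoda.1 was found at similar levels in adult eyes and in development, so it did not have the large difference that APOD had between the developmental sections and the adult eyes. It had 317 UMIs in adult eye 1, 462 in adult eye 2, 139 in the stage 3 and 5 section and 149 in the stage 4 head. The levels were 73.4 CPM (65.5 to 81.9), 89.5 CPM (81.5 to 98.1), 91.9 CPM (77.2 to 108) and 34.9 CPM (29.5 to 41.0) in the same order of sections. The stage 4 head was the lowest, and the intervals of the other 3 sections overlapped each other.

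The mean adult level of apoda.1 differed from that of the stage 3 and 5 section by a log2 ratio of -0.17. That sign turned to 0.39 when crystallins and globins were left out of the totals and to 0.45 when it was taken relative to the median gene. The median of the 7191 genes was itself at -0.62 against the stage 3 and 5 section and at 0.50 against the stage 4 head. Over the stage 4 head the adult mean of apoda.1 was 2.33 times higher, a log2 ratio of 1.22, which was 0.73 relative to the median gene. Neither ratio passed 4-fold, and 0.807% of the 7191 genes were at least 4-fold higher in both adult eyes than in both developmental sections. The stage 3 head and stage 5 eye held 2.63 times (2.07 to 3.34) the apoda.1 level of the stage 4 head.

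**Figure D1:**
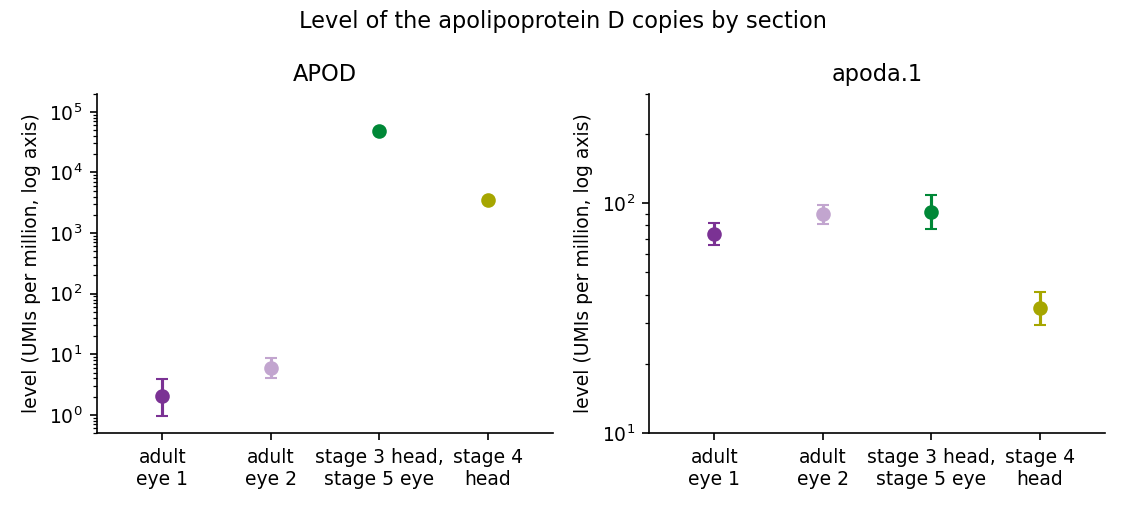
Level of APOD (left) and apoda.1 (right) in CPM on log axes, by section; points are section totals over all used spots and bars are exact Poisson 95% intervals, which cover counting error only and are smaller than the points for APOD in development. APOD sits at 2.08 and 6.01 in the adult eyes, against 47876 and 3450 in the developmental sections, while apoda.1 lies between 34.9 and 91.9 in all 4.

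The spots that held APOD were many in development and few in the adult eyes. A UMI of APOD was seen in 9 of 1293 spots of adult eye 1 (0.696%, 0.319 to 1.32), in 23 of 1488 spots of adult eye 2 (1.55%, 0.982 to 2.31), in 714 of 779 spots of the stage 3 and 5 section (91.7%, 89.5 to 93.5), and, for the stage 4 head, in 647 of 1135 spots (57.0%, 54.1 to 59.9). When every spot was thinned to 500 UMIs, with 238, 460, 115 and 104 spots too shallow for it, an APOD UMI was seen in 0.379% and 0.292% of spots in the adult eyes, 77.1% in the stage 3 and 5 section and 27.4% in the stage 4 head. The order of the developmental sections was the same with and without thinning, and both stayed far above the adult eyes.

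Within each developmental section the APOD molecules were concentrated in a small part of the tissue. In the stage 3 and 5 section the 10% of spots with the most APOD UMIs (78) held 80.1% of all APOD UMIs. In the stage 4 head the 10% chosen in this way (114 spots) held 89.7%. The richest single spots had 2488 and 999 APOD UMIs in these sections, and the largest share of a spot's RNA that was APOD was 64.9% and 34.8%. The median spot had 0.613% and 0.0232%. APOD exceeded 1% of the UMIs in 314 spots (40.3%) of the stage 3 and 5 section and, in the stage 4 head, in 88 spots (7.75%), and it exceeded 10% in 84 and 23 spots. The level of a spot had little correlation with its depth, with r to the log2 UMI total of 0.02 over 779 spots and -0.06 over 1135 spots.

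apoda.1 was sparse in every section. A UMI was seen in 126 spots (9.74%) and 132 spots (8.87%) of the adult eyes, in 77 spots (9.88%) of the stage 3 and 5 section and in 85 spots (7.49%) of the stage 4 head. Thinning to 500 UMIs gave 6.45% (5.04 to 8.10), 5.54% (4.23 to 7.12), 3.46% (2.21 to 5.15) and 2.52% (1.65 to 3.67). The richest spots held 15 and 31 UMIs in the adult eyes and 9 and 12 UMIs in the developmental sections.

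**Figure D2:**
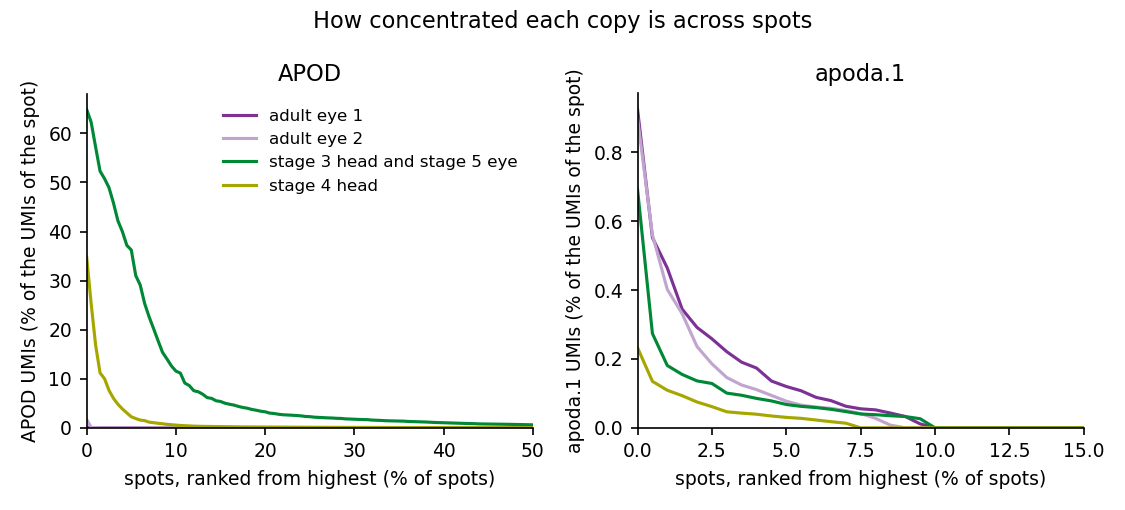
Spots of each section ranked from the highest share of APOD (left) or apoda.1 (right); the x axis is the rank as a percentage of used spots and the y axis the percentage of the UMIs of a spot that came from the copy, with a line per section. APOD reaches 64.9% of a spot in the stage 3 and 5 section and 34.8% in the stage 4 head and then drops steeply, while the lines of both adult eyes lie along the bottom.

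The regions that carried APOD were found by clustering the spots of each section on the expression of variable genes, with the apolipoprotein D copies left out, and each region is named here by the 3 genes that lead it. Regions are parts of 1 section and not replicates, so their levels are a description. In the stage 3 and 5 section, a region of 102 spots led by the keratins krt15 and krt98 and the protease inhibitor TFPI2 held 56.7% of all APOD UMIs. APOD was at 226567 CPM there (224382 to 228768), or 22.7% of all RNA molecules counted, against 23530 CPM in the other 677 spots. A second region of 63 spots, led by the calcium-binding protein S100A11 and the corneal matrix proteoglycans KERA and fmoda, had 121345 CPM and 12.4% of the UMIs. The next was a region of 34 spots led by zgc:114181, mamdc2a and s100w, with 54463 CPM.

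In the stage 4 head, a region of 61 spots led by sfrp1a, LGMN and ST6GALNAC2 held 75.6% of all APOD UMIs at 98633 CPM (96809 to 100482), against 864 CPM in the other 1074 spots. Every one of the 61 spots had an APOD UMI. The next highest was a region of 78 spots led by krt5, thbs4a and ACTA1, with 2409 CPM. The regions richest in APOD therefore had different leading genes in the 2 sections, keratins in one and sfrp1a in the other, although sfrp1a, TFPI2, pgfb and VIP were among the 10 leading genes of both.

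APOD was low in the regions led by crystallins. The region of the stage 3 and 5 section led by the lens crystallins CRYBB3, cryaba and cryba1a had 2437 CPM (2236 to 2650). In the stage 4 head the lowest level was 61.0 CPM (38.2 to 92.3), in the region led by the crystallins cryaa, cryaba and crybb1l3. An APOD UMI was present in 60 of the 80 spots of the crystallin region of the stage 3 and 5 section, at a median of 2230.5 UMIs per spot, and in 18 of 81 spots in the stage 4 head, at a median of 3751 UMIs. The richest regions had an APOD UMI in 96 of 102 and in 61 of 61 spots, at medians of 1625 and 1444 UMIs. APOD UMIs were thus found over most of the stage 3 and 5 section, its crystallin region included, and how much of this came from RNA that had moved between spots was not tested.

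In mixed tissue the regions were also set against marker lists of 17 cell types. In the APOD-rich region of the stage 3 and 5 section, 100 of 2085 genes (4.80%) were at least 2-fold above the other spots. Among the markers, 4 of 10 of connective tissue, 2 of 5 of surface epithelium, 1 of 20 of muscle and 3 of 3 of plasma proteins were. In that of the stage 4 head, 297 of 2879 genes (10.3%) were, with 4 of 6 markers of surface epithelium, 5 of 25 of muscle and 2 of 12 of connective tissue. Across the 779 spots of the stage 3 and 5 section, APOD had its highest correlations with the summed markers of connective tissue (r of 0.31), surface epithelium (0.28) and muscle (0.28). Across the 1135 spots of the stage 4 head the highest were surface epithelium (0.27), meninges and vessel wall (0.19), blood (0.17) and connective tissue (0.17), with muscle at 0.13. In the stage 3 and 5 section blood was at -0.15, against 0.17 in the stage 4 head. The correlations with the lens markers were -0.19 and -0.21 in these sections. Spots of 1 section share a library, and these values are descriptions.

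In each developmental section the region highest in apoda.1 was another than the 1 richest in APOD. That of the stage 3 and 5 section, led by zgc:114181, still held 54463 CPM of APOD, against 47395 CPM in the other spots. In adult eye 1 a region of 30 spots led by tyrp1b, rlbp1b and aanat1 had 1705 CPM (1234 to 2297) and 13.6% of the UMIs, and a region of 52 spots led by zgc:114181, si:dkey-197i20.6 and zgc:91968 had 1236 CPM (1034 to 1467) and 41.3% of them. A region of 111 spots led by KERA, fmoda and DCN had 525 CPM and 28.4%. tyrp1b encodes an enzyme of melanin synthesis and rlbp1b a retinaldehyde carrier of the visual cycle.

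In adult eye 2 the highest region, of 52 spots, was led by zgc:114181, si:dkey-197i20.6 and vtna, with 2303 CPM (2039 to 2591) and 59.7% of the apoda.1 UMIs. The next was a region of 32 spots led by ela3l, aanat1 and rlbp1b, with 1023 CPM (662 to 1510). The first-ranked leading genes zgc:114181 and si:dkey-197i20.6 were those of the 52-spot region of adult eye 1. In adult eye 1 the intervals of the 30-spot and 52-spot regions overlapped, and with the copies among the variable genes its highest region was 1 of 46 spots at 1831 CPM with 40.1% of the UMIs, so their order there was not settled.

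In the stage 3 and 5 section the highest region for apoda.1 was again led by zgc:114181, with mamdc2a and s100w, at 350 CPM (245 to 484) and 25.9% of the UMIs in 34 spots. A region of 74 spots led by rpe65a, rlbp1b and RBP3, genes of the visual cycle, had 311 CPM (203 to 456) and 18.7%. These intervals overlapped, and the highest region was another, of 122 spots at 212 CPM, at Leiden resolution 0.5, and of 120 spots at 355 CPM with the copies among the variable genes. In the stage 4 head the highest levels were 217 CPM (148 to 308) in 75 spots led by fmoda, mamdc2a and TKT, 207 CPM (137 to 299) in 84 spots led by gngt2b, rlbp1b and RBP3, and 152 CPM (114 to 200) in 89 spots led by fabp7b, ccn2a and S100A11, which held 34.9% of the UMIs. These 3 intervals overlapped. No apoda.1 UMI was seen in the region led by acanb, MATN1 and TNC, which allows 10.4 CPM. None was seen either in the region led by krt5, thbs4a and ACTA1, which allows 14.3 CPM.

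**Figure D3:**
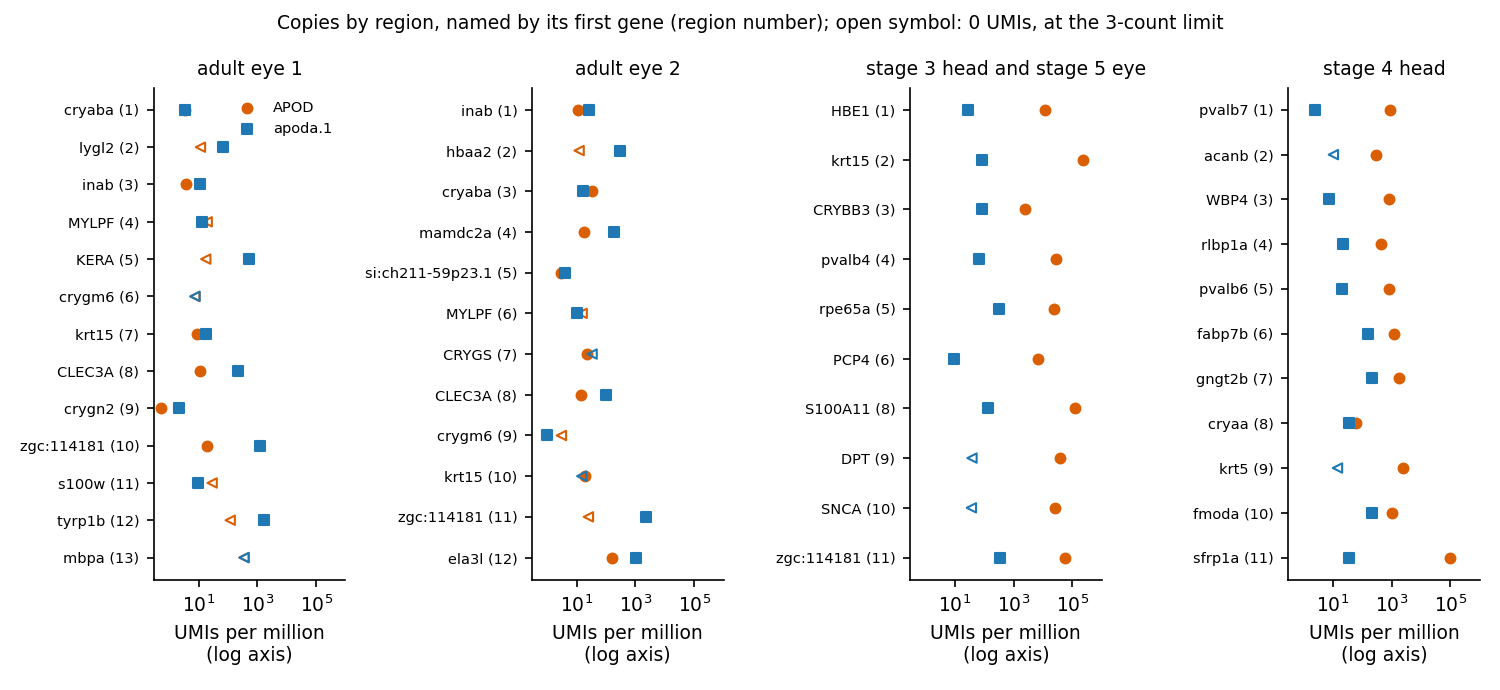
Level of APOD (circles) and apoda.1 (squares) in CPM on a log axis by region, a panel per section, with 1 region of each developmental section not drawn; regions carry their first leading gene and their number, and an open symbol marks 0 UMIs, drawn at the value of 3 counts. APOD is highest in the krt15 region of the stage 3 and 5 section (226567), followed by its S100A11 region (121345). In the stage 4 head APOD stands apart in the sfrp1a region (98633). apoda.1 is highest in the tyrp1b region of adult eye 1 (1705) and the zgc:114181 region of adult eye 2 (2303).

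The genes whose pattern across spots was most like that of APOD were found by Pearson correlation of log2(counts per 10000 + 1), separately in each developmental section, among genes with a symbol and at least 50 UMIs. The adult eyes held too few APOD molecules for this. Genes measured in both sections numbered 1734, those without a symbol included. Of those with a symbol, the 10 with the highest lower value of the 2 correlations were sfrp1a, the LGMN row ENSABLG00000011797, tnfsf12, ESM1, ST6GALNAC2, timp2b, TFPI2, the LGMN row ENSABLG00000012284, pgfb and NPC2. For sfrp1a, a secreted inhibitor of Wnt signalling, r was 0.74 in the stage 3 and 5 section and 0.68 in the stage 4 head. The first LGMN row, a copy of the lysosomal protease legumain, had 0.72 and 0.65, and tnfsf12, a cytokine of the tumour necrosis factor family, had 0.66 and 0.64.

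ESM1, a secreted proteoglycan, had r of 0.70 and 0.60, and ST6GALNAC2, which adds sialic acid to glycoproteins, had 0.63 and 0.58. The metalloproteinase inhibitor timp2b had 0.67 and 0.58, and TFPI2 had 0.65 and 0.47. The second LGMN row had 0.62 and 0.46, the growth factor pgfb of the VEGF family 0.69 and 0.46, and the lysosomal cholesterol carrier NPC2 0.58 and 0.46. The secreted protease htra1a, among the 5 highest in the stage 3 and 5 section, had 0.68 there.

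The 10 genes were chosen as the highest, so values above those of most genes were fixed in advance. The values of all genes are given as a background. The median gene had r of -0.02 with APOD in the stage 3 and 5 section (2084 genes) and -0.0046 in the stage 4 head (2878 genes), and the 99th percentiles were 0.475 and 0.256. Correlations above 0.5 were found for 20 genes and 6 genes. Of the 10 highest genes with a symbol in each section, 9 were shared by both. The median r among the 45 pairs of the 10 genes was 0.66 in the stage 3 and 5 section and 0.53 in the stage 4 head. Choosing genes that follow APOD favours this, so it is a description. None of the 10 was on any of the 17 marker lists. Each list matched only 4 to 32 of the 22934 genes, so 0 of 10 is no result about these genes.

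In an alternative chosen after seeing the data, the spots of that region were left out, and the 10 genes then had r between 0.438 and 0.648 over 677 spots of the stage 3 and 5 section and between 0.126 and 0.387 over 1074 spots of the stage 4 head, where the 99th percentiles of all genes were 0.355 and 0.179. The lowest of the 10 in the stage 4 head was thus within the range of most genes. The 10 genes chosen in the same way from those spots included 7 of the 10. When the UMIs of APOD itself were left out of the spot totals, also chosen after seeing the data, all 10 stayed among the 10 most like genes. By rank correlation the highest lower r was 0.437, for sfrp1a, and the lowest of the 10 genes fell to 0.255. After thinning to 500 UMIs these values were 0.531, for sfrp1a, and 0.313.

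In the stage 3 and 5 section there were 6.66 APOD UMIs (6.48 to 6.84) per summed UMI of the 10 genes in the richest region, against 5.72 (5.56 to 5.89) in the other spots. For the stage 4 head these values were 5.32 (5.08 to 5.58) and 3.17 (2.96 to 3.39). The genes were chosen for following APOD and the regions are ranked by it, so these values are a description.

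**Figure D4:**
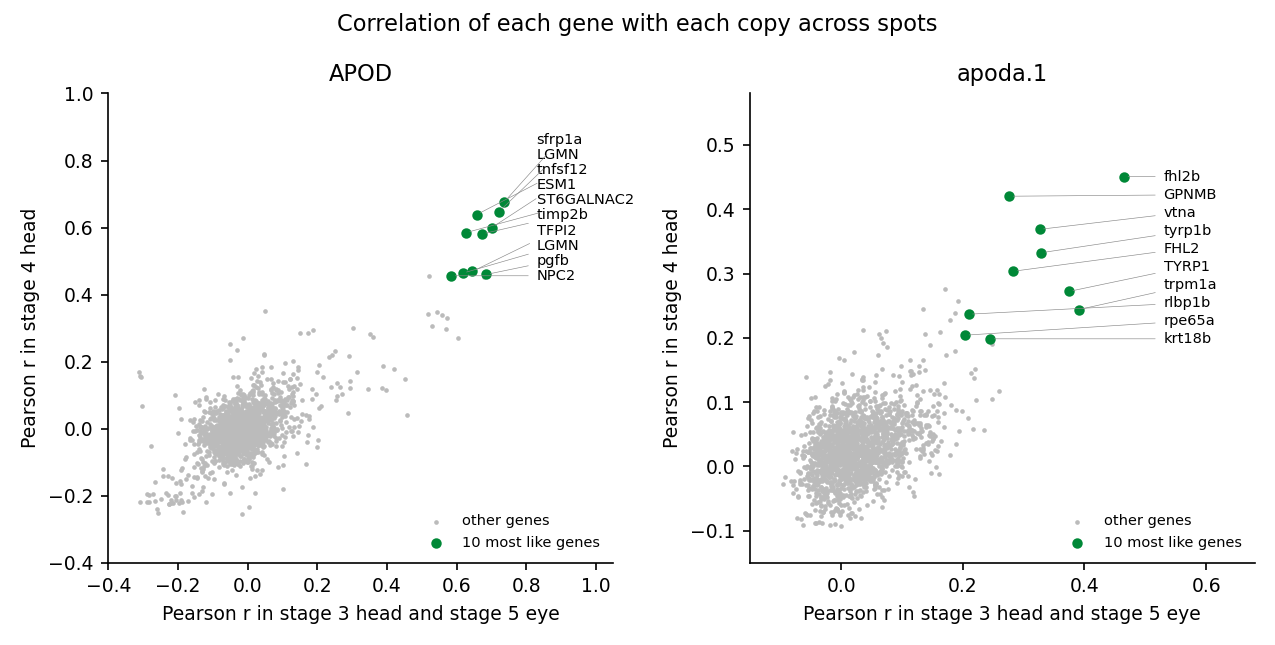
Pearson correlation across spots of each of 1734 genes with APOD (left) and with apoda.1 (right). The x axis is the stage 3 and 5 section and the y axis the stage 4 head. Each point is a gene, and the 10 most like genes with a symbol are coloured and named. The named genes of APOD reach at least 0.456 in both sections, apart from the bulk of genes near 0, and those of apoda.1 lie lower, between 0.198 and 0.465.

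Most genes of the APOD pattern had lower levels in both adult eyes than in both developmental sections. They were chosen for having UMIs and following APOD in the developmental sections. Lower adult levels were thus favoured in advance, and the levels are a description. sfrp1a had 0 CPM and 0.194 CPM in the adult eyes, against 2091 CPM in the stage 3 and 5 section and 125 CPM in the stage 4 head. The first LGMN row had 0.232 and 0.581 CPM in the adult eyes, against 1012 and 124 CPM in the developmental sections. ST6GALNAC2 had no UMI in either adult eye and 284 and 42.2 CPM in the developmental sections. Of the 10 genes and htra1a, 8 of 11 were at least 4-fold lower in both adult eyes than in both developmental sections. The share over all genes was 2.02%, but these genes had to have UMIs in the developmental sections and follow APOD there, so the shares are not comparable and nothing is read from the count.

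The other members of that group were less far apart. timp2b had 51.9 and 40.9 CPM in the adult eyes, against 761 and 143 CPM in development. The second LGMN row had 33.3 and 31.4 CPM against 580 and 41.9 CPM. NPC2 had 73.4 and 55.4 CPM against 418 and 63.7 CPM, so that its adult levels lay at or near that of the stage 4 head. The 10 genes summed to 186 CPM (173 to 199) and 152 CPM (142 to 163) in the adult eyes, against 7698 CPM (7559 to 7839) in the stage 3 and 5 section and 756 CPM (730 to 782) in the stage 4 head. The summed level was highest in the section where APOD was highest, but the genes were chosen from the developmental sections, so this is a description.

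**Figure D5:**
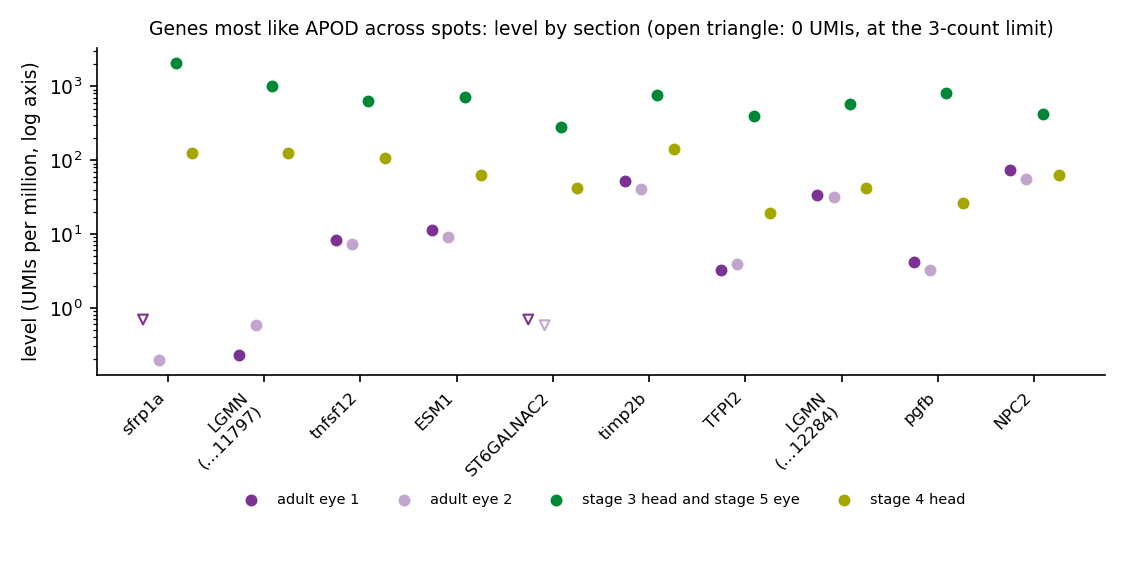
Level in CPM (log axis) of the 10 genes most like APOD, by section, with a point per section and an open triangle for 0 UMIs at the value of 3 counts. All 10 are highest in the stage 3 and 5 section, from 284 for ST6GALNAC2 to 2091 for sfrp1a, and the adult points of NPC2 (73.4 and 55.4) lie beside the stage 4 head (63.7).

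The genes most like apoda.1 included pigment genes in all sections. fhl2b, a protein with LIM domains, had r of 0.46 and 0.57 in adult eye 1 and adult eye 2, 0.46 in the stage 3 and 5 section and 0.45 in the stage 4 head. vtna, a copy of vitronectin, an adhesion protein of plasma and matrix, had 0.49 and 0.56 in the adult eyes and 0.33 and 0.37 in the developmental sections. GPNMB, a glycoprotein of pigment cells, had 0.38 and 0.46 and then 0.28 and 0.42. FHL2 had 0.33, 0.42, 0.28 and 0.30, and the melanin enzyme TYRP1 had 0.29, 0.32, 0.37 and 0.27. The melanin enzyme tyrp1b had 0.20 and 0.18 in the adult eyes and 0.33 and 0.33 in development. The 5 highest genes of both adult eyes also included si:dkey-197i20.6 (0.48 and 0.58), lypc (0.41 and 0.49) and zgc:91968 (0.38 and 0.47).

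The 99th percentile of all genes was between 0.183 and 0.199 in the 4 sections. Genes without a symbol were not ranked, and in adult eye 1 the only gene above 0.5 had no symbol. Among genes with a symbol, FHL2, GPNMB, fhl2b and vtna were among the 10 highest in all 4 sections. The adult eyes shared 8 of their 10 highest genes and the developmental sections 5 of theirs. In both developmental sections the 10 genes were fhl2b, tyrp1b, vtna, FHL2, GPNMB, TYRP1, the channel gene trpm1a, the visual cycle genes rlbp1b and rpe65a, and the keratin krt18b. Of these, tyrp1b, TYRP1 and rpe65a were on the pigment epithelium list, trpm1a and rlbp1b on the inner retina list, trpm1a also on the pigment cell list and krt18b on the surface epithelium list. After thinning to 500 UMIs the highest lower r of any gene with a symbol was 0.196, for TYRP1, and the lowest of the 10 genes fell to 0.0191. By rank correlation these values were 0.459, for fhl2b, and 0.210.

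The summed markers of the pigment lists followed apoda.1 in every section. For pigment epithelium r was 0.29 and 0.26 in the adult eyes and 0.34 and 0.31 in development, and for pigment cells it was 0.31 and 0.36 in the adult eyes and 0.40 and 0.29 in development. Some other lists came near these values in the adult eyes. Surface epithelium had r of 0.22 and 0.24 there and 0.15 and 0.11 in development. Cartilage and bone had 0.21 and 0.23, and then 0.18 and 0.07. The pigment epithelium list summed to 118 and 136 CPM in the adult eyes, with 14 and 13 of its 16 genes detected, against 788 and 342 CPM in development, with 15 and 14 detected. The level of apoda.1 was 0.799 times (0.653 to 0.983) that of the stage 3 and 5 section in adult eye 1 and 0.974 times (0.804 to 1.19) in adult eye 2.

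APOD and apoda.1 were little correlated across spots in development, with r of 0.03 in the stage 3 and 5 section and 0.02 in the stage 4 head. The adult eyes held too few APOD UMIs to tell. None of the 10 genes most like one copy was among those of the other in either developmental section. These lists of 10 came from the genes with a symbol among 2084 and 2878 genes. Unrelated lists would seldom share a gene, so this is no result about the copies. In the stage 3 and 5 section APOD was at 19792 CPM in the spots with an apoda.1 UMI, against 51714 CPM in the other spots. In the stage 4 head it was at 3191 CPM, against 3473 CPM. The 10% of spots with the highest APOD share of their UMIs held 7 of the 139 apoda.1 UMIs (5.04%) of the stage 3 and 5 section. They held 11.1% of all UMIs there. In the stage 4 head such spots held 15 of 149 (10.1%), beside 5.93% of all UMIs.

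Of the 4 other rows with an apoda or apodb symbol, 3 had no UMI in any section. The fourth, apodb (ENSABLG00000019318), was chosen for mention after its values were seen. It had 54 and 42 UMIs in the adult eyes, against 142 in the stage 3 and 5 section and 64 in the stage 4 head, or 12.5 and 8.14 CPM against 93.8 and 14.99 CPM. Across spots it followed APOD with r of 0.39 in the stage 3 and 5 section and 0.19 in the stage 4 head. Of its UMIs, 69.7% and 31.3% lay in the 10% of spots with the highest APOD share. Of its 10 most like genes, 8 and 7 were also among the 10 of APOD. With apoda.1, r was 0.02 and 0.08 in the same sections. Reads that near-identical copies could share were not examined here, since the counts are given per gene only, so the split of molecules among copies is uncertain.

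Of 17 apolipoprotein genes matched, 6 had enough UMIs to compare and none was 4-fold lower or higher in both adult eyes, where 2.02% and 0.807% of all genes were, so that 0 of 6 is no result about the list. They had a median log2 ratio of -0.10 beside -0.25 for all genes. apoeb, a copy of apolipoprotein E, a carrier of cholesterol, was at 1109 and 1127 CPM in the adult eyes, against 378 CPM in the stage 3 and 5 section and 156 CPM in the stage 4 head. APOC1 had 112 and 107 CPM in the adult eyes, against 80.6 and 82.9 CPM in development. APOA2 had 17.8 and 12.8 CPM in the adult eyes, against 127 and 20.8 CPM.

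Among lipocalins and related small lipid-binding proteins, 1 of 8 compared genes was at least 4-fold lower in both adult eyes and 1 was higher, beside 2.02% and 0.807% of all genes. The lower one was fabp7b, a fatty acid binding protein of brain and glia in mammals, with 37.7 and 49.99 CPM in the adult eyes, against 1318 and 680 CPM in development. The higher one was ptgdsb.1, a copy of the lipocalin prostaglandin D synthase, with 3124 and 3676 CPM in the adult eyes, against 564 and 593 CPM in development. Its r with APOD was 0.25 and 0.23 in the developmental sections.

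The proteins that bind apolipoprotein D in mammals, bsg (basigin) and LEPR (the leptin receptor), were both too low to compare. bsg had 3.01 and 0.581 CPM in the adult eyes and 1.32 and 5.86 CPM in development, and LEPR had at most 2 UMIs in a section. Of 10 oxidative stress genes compared, 1 passed 4-fold, beside 0.807% of all genes higher in the adult eyes. This was PRDX6, a peroxiredoxin, higher in the adult eyes at 525 and 435 CPM, against 83.9 and 73.3 CPM in development. None of the 3 compared genes of lipoprotein receptors and lipid transfer passed it. LPL, the lipase that acts on lipoproteins, had 21.8 and 26.0 CPM in the adult eyes, against 115 and 41.7 CPM, and its r with APOD was 0.38 in the stage 3 and 5 section and 0.12 in the stage 4 head.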

How the data were processed

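Spatial libraries came from fresh frozen, 10 µm cryosections of Anableps head and eye, per the labels' protocols. The authors deposited unnormalised counts of UMIs for each gene in each spot, which Space Ranger 3.1.3 wrote per the file headers. The genome build, annotation and settings are not given in the sources used here, and no coordinates or sequences are given. Spots with at least 100 UMIs were used and counts were summed per section (CPM). No doublet caller was run and spots were not treated as replicates. With 1 section per developmental group and members chosen from the readout, no p-value was computed. The members and gene lists were chosen with earlier results of these data known. A 4-fold difference in both adult eyes against both developmental sections served as the size rule. Named genes were the copies, genes of the lists with at least 50 UMIs, the 5 genes with the highest correlation in a section and the 10 with the highest lower correlation, and 3 leading genes (CPM + 10 inside over outside) of the regions with the highest and lowest levels. Other genes named (second-ranked regions, genes shared by leading lists, apodb, bsg and LEPR) were chosen after their values were seen. Regions came from Python 3.11.15 with igraph 0.11.9, anndata 0.12.19 and scanpy 1.11.5, using 2000 variable genes without the copies, 30 components, 15 neighbours and Leiden resolution 1. In simulated data, the correlation step recovered genes planted to follow APOD at its stage 4 head level. No other pattern across spots was simulated and apoda.1 was not tested in this way. Alternatives were other UMI minimums, totals, thinning, gene minimums, rank correlation and clustering settings. A withheld item, and the regions it leads, are not reported here.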

Additional observations from a re-analysis of the deposited data

How the results depend on the processing

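No paired analysis was possible because the groups share only replicate number 1 and no test was made. A called direction was set only for the APOD ratios of adult eyes over the developmental sections. None of these reversed, but at log2 ratios of -13.53 and -9.74 this check could hardly fail. The apoda.1 ratio over the stage 3 and 5 section had no called direction and did change sign. Among all alternatives, 40 values moved by more than their counting interval, the spread between the adult eyes or, for gene counts, 1.5 times. Without crystallins and globins in the totals, APOD was at 10.1 CPM in adult eye 2, 54540 in the stage 3 and 5 section and 3974 in the stage 4 head, and apoda.1 at 123 and 151 CPM in the adult eyes. As a mean over spots, APOD was at 4.80 and 28.7 CPM in the adult eyes, 46715 in the stage 3 and 5 section and 6560 in the stage 4 head, and apoda.1 at 185, 151 and 43.0 CPM in adult eye 1, adult eye 2 and the stage 4 head. With a minimum of 500 UMIs, APOD reached 48564 and 3375 CPM in development. The apoda.1 log2 ratio of adult eyes over the stage 3 and 5 section, -0.17 as reported, was 0.39 without crystallins and globins and 0.45 relative to the median gene, and that over the stage 4 head 1.77 and 0.73. Leaving out either adult eye gave -14.49 to -12.96 and -10.69 to -9.17 for the APOD log2 ratios over the stage 3 and 5 section and over the stage 4 head, so that the APOD fold with adult eye 1 or adult eye 2 alone differed by 2.88 times, and -0.32 to -0.04 and 1.07 to 1.36 for apoda.1. Shares of spots without thinning were 1.55% for APOD in adult eye 2 and 91.7% and 57.0% in development, and 9.74%, 8.87%, 9.88% and 7.49% for apoda.1 in the 4 sections. Thinned to 1000 UMIs they were 86.6% and 39.5% for APOD in development and 9.07%, 9.77%, 7.61% and 3.94% for apoda.1. Of the 10 most like genes, 6 were kept for APOD among genes with at least 200 UMIs and 6 for apoda.1 with at least 20, with at least 200, and after thinning to 500 UMIs; the gene minimum itself removes or adds candidates. At Leiden resolution 0.5 the highest region had 166833 CPM of APOD and 212 CPM of apoda.1 in the stage 3 and 5 section and 631 CPM of apoda.1 in adult eye 1. With the copies among the variable genes the highest APOD levels were 236565 and 94151 CPM in development. The cause of these other shifts was not tested. The adult APOD values rest on 9 and 31 UMIs, which sets the width of their intervals.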
